A study of Mus musculus with 10 samples.

Results

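Homeostatic microglia are the surveying, non-activated state of the resident macrophages of the brain. In the deposited annotation they were the cells of the class Microglia whose fine state was Homeostatic, and the authors divided them into subclusters 1 to 5. They numbered 13599 cells, 62.9% of the 21630 microglia and 19.7% of the 68914 annotated cells. Subcluster 1 held 3221 cells, subcluster 2 held 972, subcluster 3 held 2618, subcluster 4 held 3092 and subcluster 5 held 3696.

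Microglia arise from yolk sac precursors, renew themselves within the brain and contact neurons with moving processes. In their resting state they express P2ry12, a purinergic receptor that steers processes towards released nucleotides, and Cx3cr1, the receptor for the neuronal chemokine fractalkine. Tmem119, a membrane protein, separates them from most blood-borne macrophages. On activation these genes are known to fall while genes of phagocytosis, lipid handling and antigen presentation rise. The table used here gives names and map positions for each cell and no gene values, so the label could not be checked against P2ry12, Tmem119 and Cx3cr1, and the subclusters are called by their numbers.

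The study asked how brain cells respond to neurofilament light chain (NfL), a protein of the axonal cytoskeleton, supplied from outside. Full-length NfL (FL-NfL, 1 mg/ml, 3 libraries), coiled-coil NfL (CC-NfL, also 1 mg/ml, 3 libraries) or vehicle (4 libraries) was injected into both hippocampi of wild-type (WT) male C57BL/6 mice, 11 weeks old. The hippocampi were taken at day 3, live cells were sorted, and droplet single-cell RNA libraries were made. Because an unrelated protein was given to none of the groups, effects of NfL and of injected protein in general cannot be told apart. A library was taken as 1 mouse from the group sizes in the design.

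The libraries belonged to the labelled batches b1 (replicates 1 and 2 of each group) and b2 (the remaining FL-NfL and CC-NfL library and 2 vehicle libraries), so each group was present in both. Batch b2 had 8800 to 14141 annotated cells per library and left 17.3% to 20.7% of barcodes unannotated, whereas b1 had 3150 to 6025 and left 42.0% to 71.3%. A library held 676 to 2388 homeostatic microglia. Exact 95% binomial (Clopper-Pearson) intervals on the share of a subcluster were 1.84 to 7.04 percentage points wide within homeostatic microglia and 1.07 to 5.65 within all microglia, and they cover counting error only. Barcodes that also occurred among the homeostatic cells of another library were carried by 40 of these cells, 0.294%.

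On the authors' t-SNE map of microglia the 5 subclusters lay in order of their distance to the Activated_2 state, with subcluster 1 at the far end. The centre of subcluster 1 was 36.9 map units from that of the Activated_2 state. The same distance was 30.5 for subcluster 2, 26.1 for subcluster 3, 20.8 for subcluster 4 and 14.8 for subcluster 5. On the map of all cells the order was less clear. Distances to Activated_2 were 18.8, 18.3, 13.4, 13.4 and 12.2 units for subclusters 1 to 5, but subcluster 1 was nearer to Activated_3 than subcluster 2 (22.3), 4 (19.9) or 5 (21.6). Subcluster 5 was also farther from Activated_1 (10.3) than subclusters 3 (7.65) and 4 (8.49) there. Maps and subclusters come from the same cells, so these distances describe the annotation and were not tested.

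**Figure D1:**
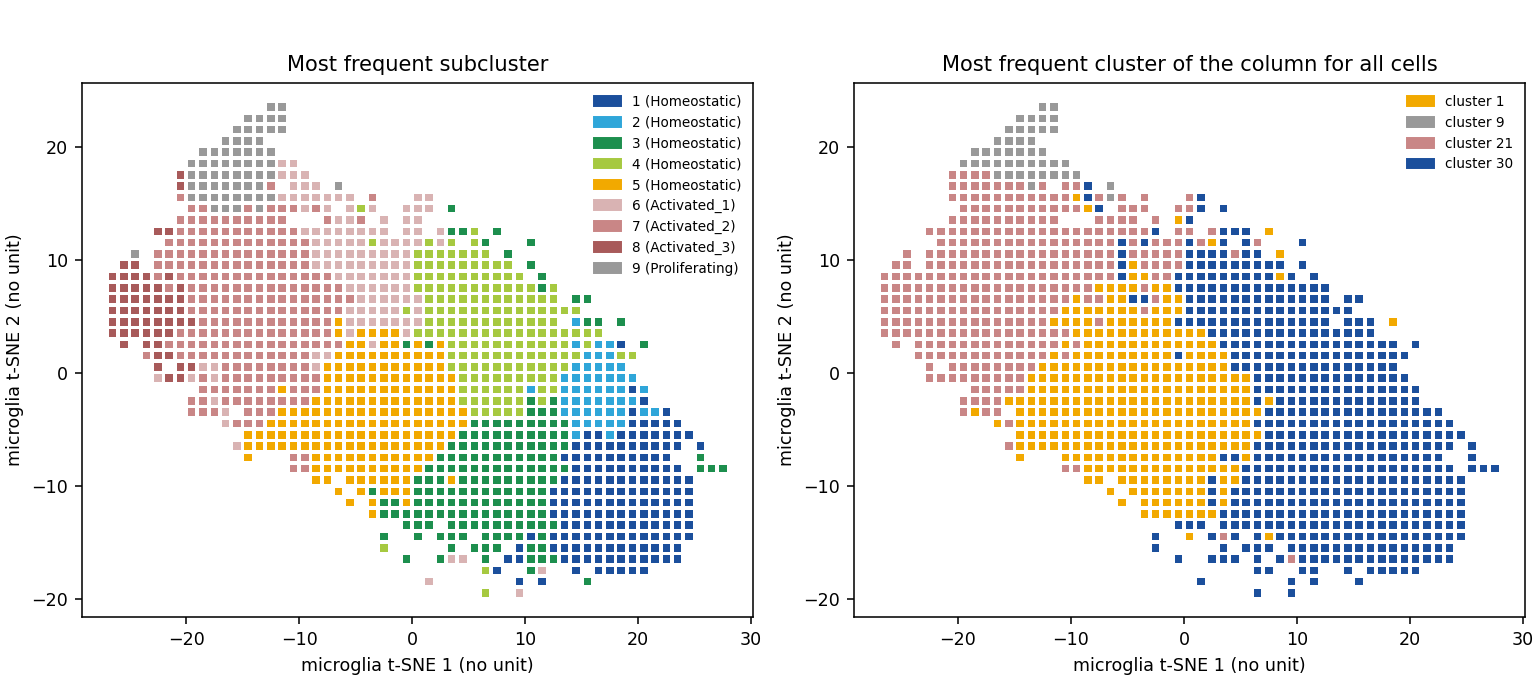
The deposited t-SNE map of microglia, axes without unit, drawn as squares of 1 map unit that hold at least 3 cells. Left, each square has the colour of its most frequent subcluster, right, of its most frequent cluster in the annotation of all cells; subclusters 1 and 2 lie in the area of cluster 30 and subcluster 5 mainly in that of cluster 1.

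Neighbourhoods on the map told the subclusters apart to different degrees. Of the 30 nearest microglia of a cell, 88.6% were of the same subcluster for subcluster 1, 76.7% for subcluster 5, 70.9% for subcluster 4, 65.6% for subcluster 3 and 58.7% for subcluster 2. Subcluster 2 had the lowest share, but it was also the smallest, and these shares are not scaled for the sizes of the subclusters. Of its neighbours, 17.3% belonged to subcluster 4 and 13.4% to subcluster 1. Neighbours in other states made up 0.339% for subcluster 1 and 0.850% for subcluster 2. They made up 3.07% for subcluster 3, 7.01% for subcluster 4 and 9.44% for subcluster 5. For subcluster 4 these were almost all Activated_1 cells (6.61% of neighbours), whereas subcluster 5 bordered both Activated_2 (5.50%) and Activated_1 (3.94%).

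The clusters of the annotation of all cells cut homeostatic microglia differently from the subclusters. Cluster 30 held 64.7% of homeostatic microglia, cluster 1 held 34.0% and cluster 21 held 1.26%. Of the microglia in cluster 30, 95.1% were homeostatic, against 76.3% in cluster 1 and 3.14% in cluster 21. Subclusters 1 and 2 lay almost entirely in cluster 30, with 99.4% and 99.6% of their cells. Subcluster 5 lay mainly in cluster 1 (90.1%, with 8.55% in cluster 30). Subclusters 3 and 4 were split, with 73.1% of subcluster 3 and 77.6% of subcluster 4 in cluster 30, and 25.5% and 19.8% in cluster 1. Cluster 30 therefore did not stand for all homeostatic cells, and cluster 1 held homeostatic and activated microglia together.

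Over all libraries, subcluster 5 made up 27.2% of homeostatic microglia, subcluster 1 23.7%, subcluster 4 22.7%, subcluster 3 19.3% and subcluster 2 7.15%. Subcluster 2 was the smallest in all 10 libraries. The largest was subcluster 1 in 4 libraries, subcluster 5 in 4 and subcluster 4 in 2, so the order of these 3 was not fixed. Libraries of 1 group and batch differed by more than counting error, with a dispersion (1 where only counting error acts) of 2.89 for subcluster 2 and 6.52 to 14.2 for the other 4.

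Subcluster 1, the farthest from the activated states on the microglia map, was lower among microglia after CC-NfL than after vehicle. It made up 14.4%, 7.13% and 9.93% of the microglia of CC-NfL libraries 1 to 3, against 25.1%, 18.1%, 17.6% and 20.3% in vehicle libraries 1 to 4. The CC-NfL libraries all lay below the vehicle libraries. These groups were free of overlap in 3 of the 9 microglial subclusters (33.3%). The mean was 10.5% ± 3.66 (SD, n = 3) after CC-NfL and 20.3% ± 3.44 (SD, n = 4) after vehicle, a ratio of 0.517. The log2 odds ratio, fitted in limma with a batch term, was -1.18 (SE 0.34, adjusted p = 0.0202 over the 9 subclusters). This was the 1 subcluster of 9 called lower, 11.1% of those tested, and 22.2% were called in either direction. The call ended without CC-NfL replicate 2 (adjusted p = 0.0570) or 3 (0.0937) and in b1 alone (0.150). Exact permutation of the percentages gave an adjusted p of 0.0857 over all splits, where subcluster 1 had the smallest p possible (0.0286). Within batch the adjusted p was 0.125, and the smallest p there is 0.0556, so this permutation could not pass.

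The other homeostatic subclusters did not pass in limma over all libraries after CC-NfL. Subcluster 2 made up 6.11%, 3.16% and 3.05% of microglia after CC-NfL and 7.56%, 7.95%, 4.35% and 4.64% after vehicle, with a log2 odds ratio of -0.76 (SE 0.30, adjusted p = 0.0759). It did pass in a quasi-binomial model (-0.75, adjusted p = 0.0360), which called 3 of 9 subclusters, 2 of them homeostatic, and in limma without CC-NfL replicate 1 (-0.97, adjusted p = 0.0258). Its b2 libraries were the low ones in the vehicle group, and the groups overlapped. Subcluster 3 averaged 8.64% ± 1.63 after CC-NfL and 13.2% ± 2.20 after vehicle (-0.57, adjusted p = 0.168). Subcluster 4 averaged 12.9% ± 2.37 after CC-NfL and 16.6% ± 1.68 after vehicle (-0.47, adjusted p = 0.168). Subcluster 5 averaged 15.2% ± 3.80 after CC-NfL and 17.9% ± 3.35 after vehicle, and had the smallest estimate (-0.20, adjusted p = 0.581). CC-NfL minus vehicle was -22.8 percentage points for the homeostatic state, of which subcluster 1 made up -9.80 points, or 43.1%, and subcluster 5 made up -2.67.

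After FL-NfL all 5 subclusters had limma estimates below 0 against vehicle, and none passed over all libraries. Subcluster 2 passed without CC-NfL replicate 2 (-0.49, adjusted p = 0.0306). Subcluster 1 made up 17.7%, 12.5% and 14.4% of the microglia of FL-NfL libraries 1 to 3, with a mean of 14.9% ± 2.62 (SD, n = 3) against 20.3% ± 3.44 after vehicle. FL-NfL library 1 lay just above the lowest vehicle library, and the other 2 lay below all vehicle libraries. This gave a log2 odds ratio of -0.56 (SE 0.34) at an adjusted p of 0.429. The estimates were -0.46 for subcluster 2, -0.21 for subcluster 3, -0.27 for subcluster 4 and -0.31 for subcluster 5, with adjusted p-values of 0.429 to 0.616 in limma. The direction was not stable for subclusters 3 and 5, at 0.23 and 0.0366 in a quasi-binomial model, and it also turned when 1 library was left out. With limma 0 of 9 subclusters (0%) were called, and with the quasi-binomial model also 0. Before adjustment 1 of 9 fell under 0.05 in limma, that of the Activated_2 state and not a homeostatic one. FL-NfL library 3 stood apart from the other 2, with subcluster 3 at 19.8% of microglia against 8.71% and 6.88%, and subcluster 5 at 22.1% against 8.56% and 14.0%.

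**Figure D2:**
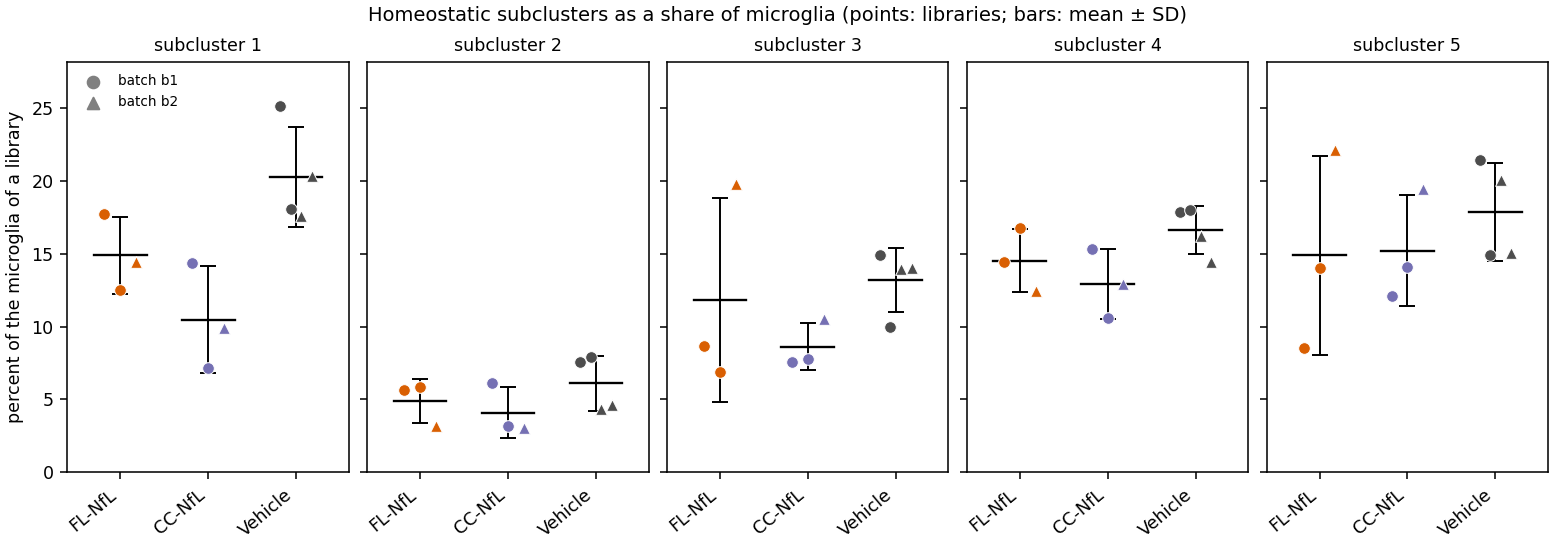
Share of the microglia of each library (percent, y axis) in homeostatic subclusters 1 to 5, by group; points are libraries (circles b1, triangles b2) and black bars the mean ± SD. For subcluster 1 the 3 CC-NfL libraries sit between 7.13% and 14.4%, all below the 4 vehicle libraries at 17.6% to 25.1%.

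FL-NfL and CC-NfL were not shown to differ in subcluster 1. Its mean share of microglia was 14.9% ± 2.62 after FL-NfL and 10.5% ± 3.66 after CC-NfL (SD, n = 3 each). The log2 odds ratio was 0.62, with a 95% interval of -0.16 to 1.40 (adjusted p = 0.483). That interval includes both 0 and differences as large as the one between CC-NfL and vehicle in size. With limma 0 of 9 subclusters (0%) were called and 0 fell under 0.05 before adjustment, and the quasi-binomial model likewise called 0.

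Both proteins together against vehicle also gave 1 homeostatic call in limma, for subcluster 1. Subcluster 1 averaged 12.7% ± 3.73 over 6 NfL libraries and 20.3% ± 3.44 over 4 vehicle libraries, and 5 of 6 NfL libraries lay below every vehicle library. In limma this was a log2 odds ratio of -0.87 (SE 0.29) at an adjusted p of 0.0466, again 1 of 9 called lower (11.1%). The call ended without CC-NfL replicate 3, any FL-NfL replicate or vehicle replicate 1, 3 or 4 (adjusted p = 0.0519 to 0.117), in b1 alone (0.140), without the batch term (0.0523) and as a share of annotated cells (0.0722). By exact permutation of the percentages the adjusted p was 0.0857 over all splits and 0.0667 within batch. Estimates for the other 4 were -0.61 for subcluster 2 (adjusted p = 0.0959 in limma), -0.39 for subcluster 3 (0.253), -0.37 for subcluster 4 (0.203) and -0.26 for subcluster 5 (0.466). Subcluster 2 passed in the quasi-binomial model (-0.60, adjusted p = 0.0460), which called 3 of 9, and in limma without CC-NfL replicate 1 (0.0370) or 2 (0.0168). These contrasts share the vehicle libraries, so they are not independent of each other.

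Within homeostatic microglia, the balance of the 5 subclusters was not shown to differ between groups. Subcluster 1 made up 25.9%, 16.7% and 17.8% of homeostatic microglia after CC-NfL and 28.9%, 26.2%, 24.4% and 29.7% after vehicle. CC-NfL library 1 lay inside the vehicle range and the other 2 below it. The log2 odds ratio was -0.64 (SE 0.26) with an unadjusted p of 0.0185 in limma and an adjusted p of 0.0927 over the 5 subclusters. Without CC-NfL replicate 1 it was -0.85 and passed (adjusted p = 0.0275). Subcluster 5 made up 21.8%, 32.9% and 34.8% after CC-NfL and 24.6%, 21.6%, 27.8% and 22.0% after vehicle, with CC-NfL library 1 again inside the vehicle range (0.48, adjusted p = 0.175, and 0.70 with 0.0466 without CC-NfL replicate 1).

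After FL-NfL, subcluster 1 made up 32.2%, 22.3% and 20.0% of homeostatic microglia, a range on both sides of the vehicle libraries. Its log2 odds ratio to vehicle was -0.25 (adjusted p = 0.968). FL-NfL against CC-NfL gave 0.39 for subcluster 1 and -0.47 for subcluster 5 (adjusted p = 0.405 for both), and both proteins against vehicle gave -0.45 for subcluster 1 (adjusted p = 0.251). Limma called 0 of 5 subclusters (0%) in each of the 4 contrasts, and only CC-NfL against vehicle had an unadjusted p under 0.05, for 1 subcluster. No subcluster separated the groups without overlap (0%). The quasi-binomial model also called 0 of 5 in each contrast.

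The composition as a whole was compared by a pseudo-F of Aitchison distances, the distance between the log ratios of the shares, with exact permutation of libraries within batch. It was 0.471 over the 3 groups (exact permutation p = 0.593) and 0.470 for both proteins against vehicle (p = 0.500). The effective number of subclusters, the exponential of the Shannon entropy of their shares, has a maximum of 5 at equal shares. It averaged 4.56 ± 0.137 after FL-NfL (SD, n = 3), 4.56 ± 0.152 after CC-NfL (SD, n = 3) and 4.66 ± 0.0821 after vehicle (SD, n = 4). With batch held fixed, the 6 NfL libraries differed from the vehicle libraries by -0.134 (exact permutation p = 0.0444, 0.111 after adjustment over 4 contrasts), which does not pass.

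**Figure D3:**
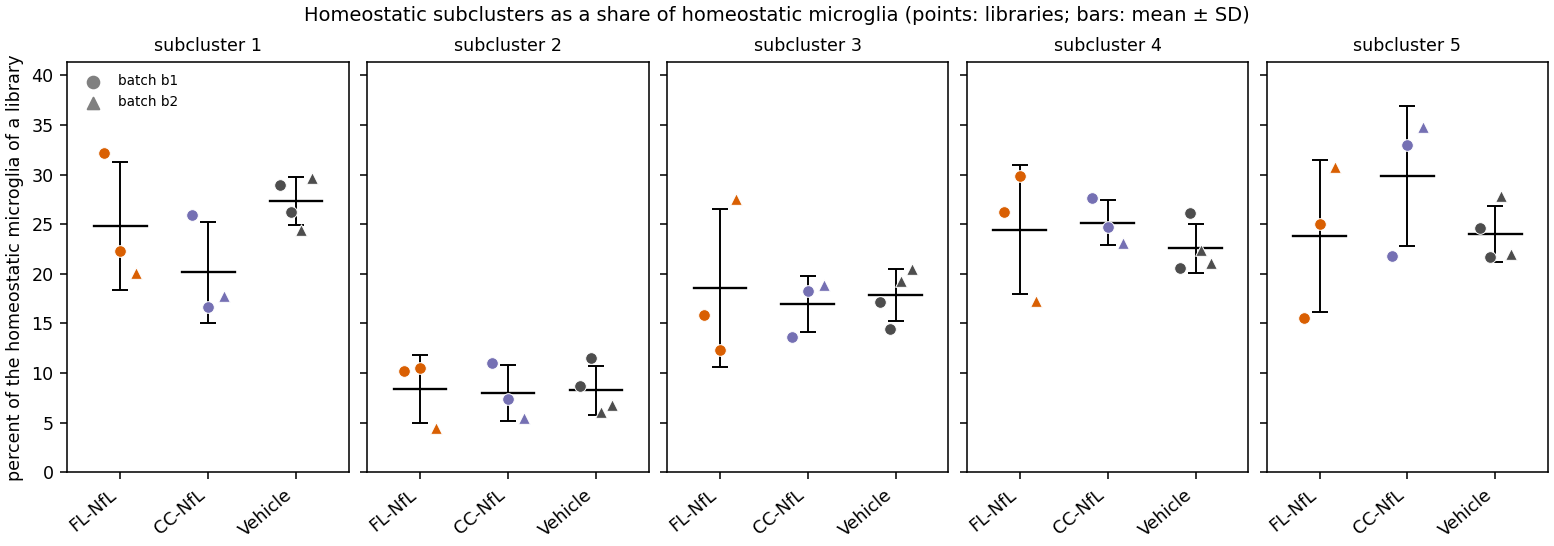
Share of the homeostatic microglia of each library (percent, y axis) in subclusters 1 to 5, by group; points are libraries (circles b1, triangles b2) and black bars the mean ± SD. Groups overlap in every panel, and in subcluster 2 the b2 libraries (4.43% to 6.77%) lie below the b1 libraries (7.39% to 11.5%).

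The balance of the subclusters differed between batches, with group held in the limma fits. Subcluster 2 made up 4.43% to 6.77% of homeostatic microglia in b2 libraries and 7.39% to 11.5% in b1 libraries, with no overlap. The log2 odds ratio of b2 to b1 was -0.91 (SE 0.22, limma adjusted p = 0.00125), and the call held without any 1 library (adjusted p = 0.000418 to 0.0223). Subcluster 3 made up 18.8% to 27.5% in b2 and 12.3% to 18.3% in b1, again with no overlap (0.61, SE 0.22, adjusted p = 0.0231). Without FL-NfL replicate 3, its highest library, the estimate was 0.36 (adjusted p = 0.351), and the call also ended without vehicle replicate 2 (adjusted p = 0.0697). Subcluster 5 did not pass (0.45, adjusted p = 0.0826). Thus 2 of 5 subclusters (40%) were called between batches. The pseudo-F with batch in place of group was 7.10 (exact permutation over all splits, p = 0.0143), and group was not held there. Batches also differed in annotated cells and in unannotated barcodes as given above, and the part of these in the result was not tested.

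The assignment to cluster 1 differed between batches within subclusters 3, 4 and 5. In subcluster 3, 39.4%, 36.6%, 28.2% and 20.6% of the cells of the b2 libraries were in cluster 1, against 4.62% to 15.1% in the 6 b1 libraries. In subcluster 4 the share was 17.0% to 43.3% in b2 and 2.97% to 15.8% in b1. In subcluster 5 it was 92.7% to 95.2% in b2 and 77.5% to 83.8% in b1. The batches did not overlap in any of the 3, and each reached the smallest p of the exact permutation test over all splits, 0.00476 (0.0143 after adjustment over 18 shares). Of these 18 shares, 50% were called between batches, among them subcluster 1 in cluster 1 at 0.69 points (adjusted exact permutation p = 0.0190). The 18 shares are not independent. Clusters 1 and 30 together held 98.7% of homeostatic microglia, so a rise in 1 of them goes with a fall in the other. These tests were added after the values were seen.

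**Figure D4:**
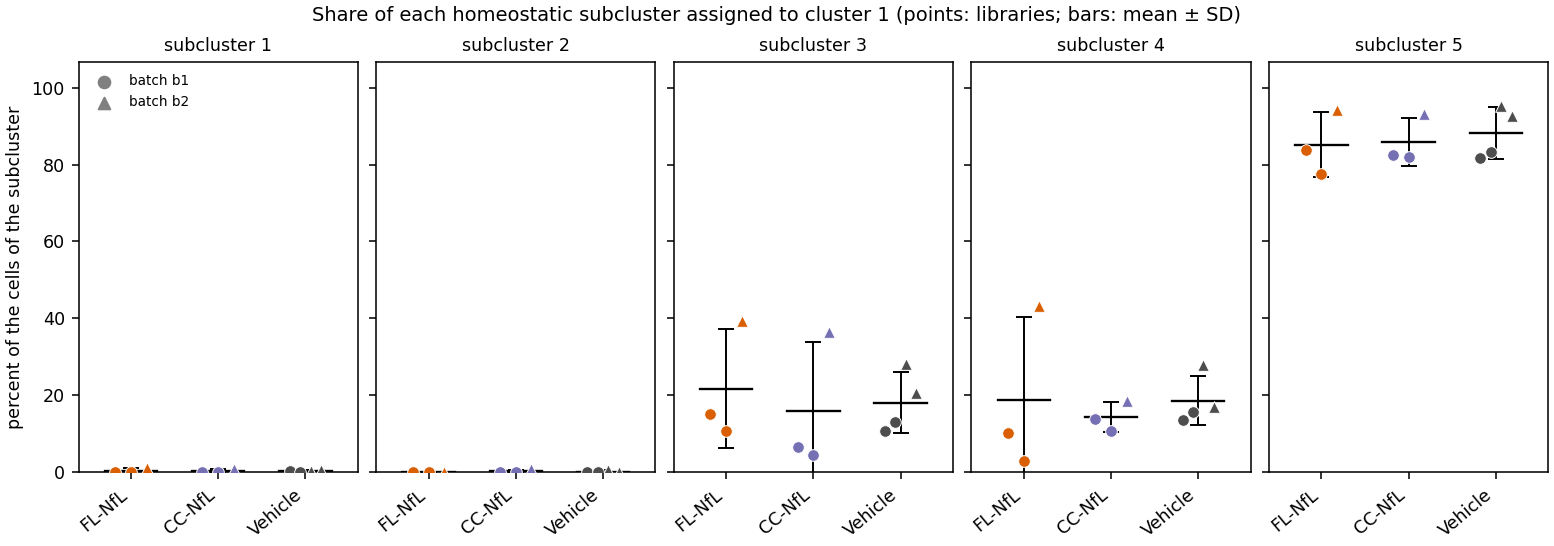
Share of the cells of each homeostatic subcluster that the annotation of all cells put in cluster 1 (percent, y axis), by group; points are libraries (circles b1, triangles b2) and black bars the mean ± SD. In subclusters 3, 4 and 5 the triangles of b2 lie above the circles of b1, while subclusters 1 and 2 stay near 0 in all libraries.

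Between groups, the share of homeostatic microglia in cluster 1 was 29.1% ± 16.1 after FL-NfL, 32.3% ± 10.7 after CC-NfL and 28.9% ± 6.56 after vehicle, a spread within groups larger than the differences between them. Cluster 21, most of whose cells were activated, held 1.86%, 2.37% and 1.43% of the homeostatic microglia of FL-NfL libraries 1 to 3 and 2.66%, 2.43% and 1.21% of those of CC-NfL libraries 1 to 3. It held 0.368%, 0.824%, 0.503% and 0.932% in vehicle libraries 1 to 4. All 6 NfL libraries lay above all 4 vehicle libraries. These shares rest on few cells, 3, 7, 12 and 19 in vehicle libraries 1 to 4 and 14 to 29 in the NfL libraries. The nearest were CC-NfL library 3 (28 of 2310 cells) and vehicle library 4 (19 of 2039). Among the 18 shares, the only other without overlap between NfL and vehicle libraries was that of subcluster 3 in cluster 21. It was 1.07% to 3.70% in NfL libraries and 0% to 0.959% in vehicle libraries, and its cells are part of the share above. The exact permutation p for both proteins against vehicle was 0.00952 over all splits and 0.0111 within batch, and neither passed after adjustment over the 18 shares (0.171 and 0.200). In each group contrast 0% of the 18 shares were called.

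Homeostatic microglia of NfL libraries had more cells in activated or proliferating states among their neighbours on the microglia map than those of vehicle libraries. Map and states come from the same cells, and the state label also chose the homeostatic cells. This comparison therefore describes the annotation and is not independent evidence of a shift in expression. For each homeostatic cell the 30 nearest microglia of the other 9 libraries were taken, and the share in the states Activated_1, Activated_2, Activated_3 or Proliferating was averaged per library. It was 4.92%, 5.98% and 4.71% in FL-NfL libraries 1 to 3 and 5.22%, 7.97% and 7.13% in CC-NfL libraries 1 to 3. In vehicle libraries 1 to 4 it was 2.30%, 3.22%, 4.00% and 3.66%. All 6 NfL libraries lay above all 4 vehicle libraries. The mean was 5.20% ± 0.683 after FL-NfL and 6.77% ± 1.41 after CC-NfL (SD, n = 3 each), against 3.30% ± 0.735 after vehicle (SD, n = 4).

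With batch held fixed, the share was 2.76 percentage points higher over both proteins than after vehicle (exact permutation p = 0.0111, the smallest possible, and 0.0444 after adjustment over 4 contrasts). The difference was 2.35 to 3.34 points without any 1 library. At most 60 splits then remain, with a smallest p of 0.0167. No such setting could therefore pass after the same adjustment (adjusted exact permutation p = 0.0667 to 0.178), and these settings do not test the call. FL-NfL alone was 1.96 points and CC-NfL alone 3.62 points above vehicle, each at 0.0556 in the exact permutation test, the lowest p possible within batch, so neither could pass. FL-NfL minus CC-NfL was -1.57 points (exact permutation p = 0.333). The difference between both proteins and vehicle was 4.70 points on the map of all cells (exact permutation p = 0.0111). Among the microglia left as possible neighbours, 34.8% to 38.5% were in other states for NfL libraries and 37.5% to 38.8% for vehicle libraries. NfL libraries also had fewer of their own microglia in the homeostatic state, 61.0% ± 9.50 after FL-NfL and 51.4% ± 7.45 after CC-NfL (SD, n = 3 each) against 74.1% ± 8.68 after vehicle (SD, n = 4), and the part of this in the result was not tested.

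The difference was called in the 3 subclusters nearest to Activated_2 on the microglia map. In subcluster 3 the share of neighbours in other states averaged 3.87% ± 1.42 after FL-NfL, 3.94% ± 0.654 after CC-NfL and 1.94% ± 0.766 after vehicle. In subcluster 4 it averaged 7.39% ± 1.62 after FL-NfL, 9.80% ± 1.68 after CC-NfL and 4.48% ± 1.65 after vehicle. In subcluster 5 it averaged 11.4% ± 2.79 after FL-NfL, 11.6% ± 1.37 after CC-NfL and 7.23% ± 1.48 after vehicle. Both proteins were above vehicle by 2.02, 4.19 and 4.18 percentage points in subclusters 3, 4 and 5 (adjusted exact permutation p = 0.0370 for each, adjusted over the 5 subclusters), so 3 of 5 (60%) were called. NfL and vehicle libraries did not overlap in subclusters 3 and 5, while in subcluster 4 FL-NfL library 3 (5.53%) lay below vehicle library 3 (6.46%).

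These 3 calls did not hold in most alternatives. With cells thinned to the size of the smallest library, the differences were 1.69, 3.81 and 6.11 points and none passed (adjusted exact permutation p = 0.0833, 0.130 and 0.0556). Leaving out 1 library ended the call in 7 of 10 cases for subcluster 3, in 9 of 10 for subcluster 4 and in 7 of 10 for subcluster 5. The differences stayed above 0, at 1.63 to 5.38 points, with fewer splits to test. Without vehicle replicate 1 or 2 the smallest exact permutation p is 0.0333, which does not pass over 5 subclusters when only 3 reach it. Subcluster 1 averaged 0.312% after FL-NfL, 0.323% after CC-NfL and 0.400% after vehicle, and subcluster 2 averaged 0.206% after FL-NfL, 1.24% after CC-NfL and 0.876% after vehicle. Neither of these 2 passed. Their shares were low in every group, which leaves little room for a fall, and whether the difference depends on nearness to Activated_2 was not tested.

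**Figure D5:**
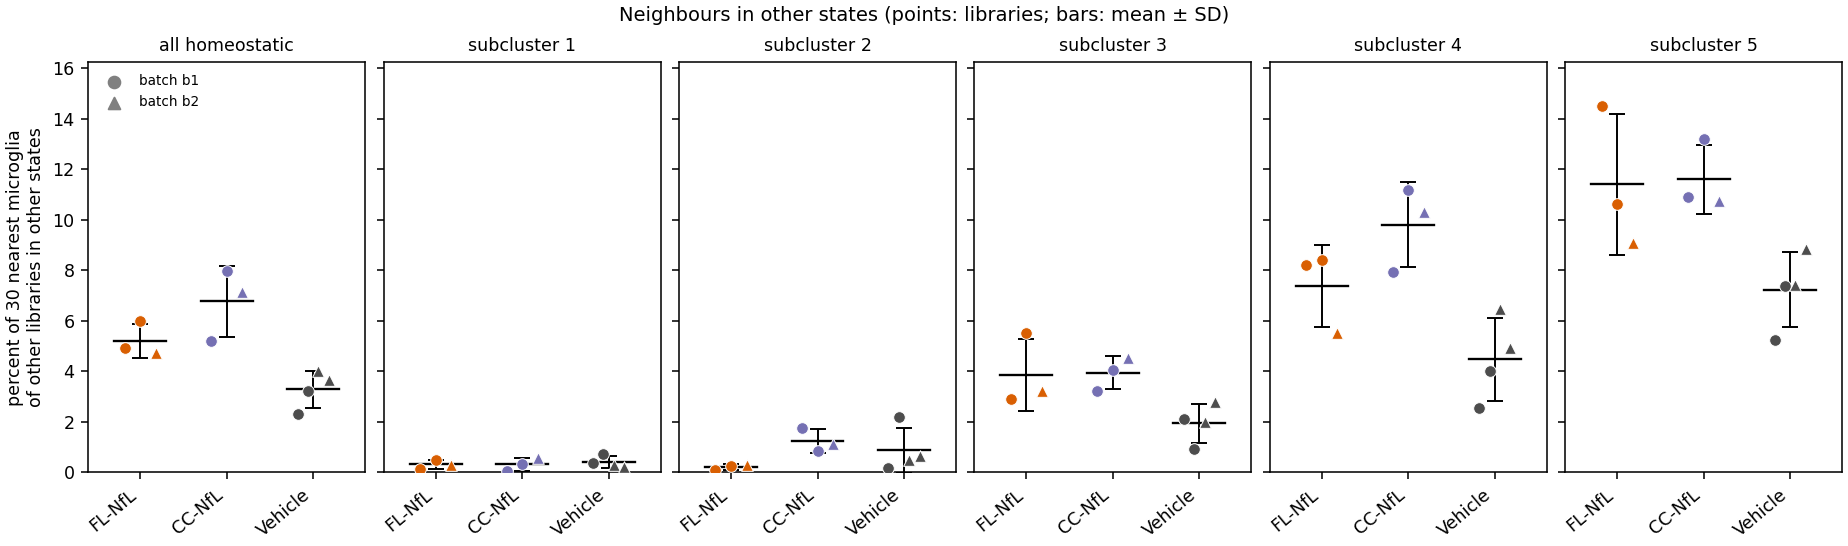
Share of the 30 nearest microglia from other libraries that were in activated or proliferating states (percent, y axis), for all homeostatic microglia and for subclusters 1 to 5, by group; points are libraries (circles b1, triangles b2) and black bars the mean ± SD. Over all homeostatic cells the 6 NfL libraries sit at 4.71% to 7.97%, above the 4 vehicle libraries at 2.30% to 4.00%.

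Among homeostatic cells alone, libraries of the same group were not shown to lie closer to each other than to those of other groups. The excess of same-group neighbours was 0.01 on the log2 scale (one-sided exact permutation within batch, p = 0.0759), and that of same-batch neighbours was 0.14. Within a batch, the 4 pairs of libraries of the same group had a mean excess of 0.14 and the 17 pairs of different groups 0.06, a difference of 0.08 that was not tested by itself. The p fell to 0.0222 on the map of all cells (exact permutation), though the excess there was below 0 (-0.102) and most relabelled values were lower still. It fell to 0.0389, 0.0370 and 0.0333 without FL-NfL replicate 2, FL-NfL replicate 3 and CC-NfL replicate 1 (exact permutation), each at an excess of 0.04. This result thus depends on the map and on single libraries. By subcluster, the excess passed in subcluster 4 alone, 1 of 5 (20%), at 0.09 on the log2 scale (adjusted p = 0.0185, exact permutation). The call for subcluster 4 ended in 7 of the 10 settings that left out 1 library, with excesses of 0.05 to 0.11 over all 10, and with 15 neighbours (0.06, adjusted p = 0.151). On the map of all cells subclusters 1, 2 and 4 passed (adjusted exact permutation p = 0.0463, 0.0370 and 0.0463), with subcluster 1 at an excess below 0 (-0.14). On the map of all cells the same-batch excess was 1.22 on the log2 scale, so that map separated the homeostatic microglia by batch more than the map of microglia did.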

How the data were processed

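Per the labels' protocols, hippocampal cells were dissociated with actinomycin D present, sorted as live and made into droplet 3' libraries. Per the submitters' processing notes, Cell Ranger 6.0.1 and the build GRCm38 were used; the settings of clustering and map are not named there. The deposited table holds, per barcode, names (condition, batch, cluster, class, state, subcluster) and t-SNE positions, a score without unit that the authors computed; 7 of its columns were not used. Condition and batch matched the labels for all 68914 annotated cells. The annotation was used unchanged; the treatment of doublets is not given in the sources used here. Shares were computed per library, the replicate throughout. Odds on the log2 scale, with 0.5 added to the cells of an item and to those outside it, entered a limma model (limma 3.58.1, R 4.3.3) of group plus batch over 10 libraries, with Benjamini-Hochberg adjustment over the 9, 5 or 5 items of a fit (subclusters of microglia, subclusters of homeostatic microglia, states). An adjusted p under 0.05 was called. Limma pools the spread over items that sum to 100% within a library and are not independent, so its p-values may be too small. Permutation tests were exact, two-sided unless named, in Python 3.11.15; their smallest p within batch was 0.0556 for 1 protein against vehicle, 0.0833 between the proteins and 0.0111 for both against vehicle. Samples with the same replicate number were not treated as pairs. All 5 subclusters and every cluster holding at least 1% of homeostatic cells are named. Alternatives were another pseudocount, scale, model and denominator, no batch term, 1 batch, other numbers of neighbours, thinning, another map and each library left out. The steps were checked on simulated data. The cells and subclusters described here were chosen with earlier results of these data known.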

Additional observations from a re-analysis of the deposited data

Results flagged for a closer look

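In subcluster 2, 99.3% of the cells of vehicle library 3 were in cluster 30 (143 of 144 cells), against 100% in each of the other 3 vehicle libraries. Dixon's test marks this value, but 1 cell makes the whole difference: with the other 3 at the ceiling, any single cell outside cluster 30 gives the same mark. Chance marks about 1 in 20 groups, and this was the 1 mark among 32 values tested in the vehicle group.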

How the results depend on the processing

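The number of microglial subclusters called for FL-NfL against vehicle was 1 on the arcsine scale and in b1 alone, and 0 to 1 with 1 library left out. For CC-NfL against vehicle it was 1 in b1 alone and as a share of all annotated cells, 3 in the quasi-binomial model, and 0 to 3 with 1 library left out. By exact permutation it was 0 over all splits and 0 within batch, where none could pass. For both proteins against vehicle it was 1 in b1 alone, without the batch term and by exact permutation over all splits, 0 by exact permutation within batch and as a share of all annotated cells, 3 in the quasi-binomial model, and 1 to 3 with 1 library left out. With 1 library left out, subcluster 1 stayed lower, at log2 odds ratios of -1.45 to -0.89 for CC-NfL and -0.997 to -0.717 for both proteins. Among shares of microglia, the quasi-binomial model reversed subcluster 3 (0.23) and subcluster 5 (0.0366) for FL-NfL and subcluster 5 for both proteins (0.0182). Leaving out 1 library gave -0.67 to 0.0411 for subcluster 3 after FL-NfL, and for subcluster 5 -0.67 to 0.0021 after FL-NfL, -0.38 to 0.0636 after CC-NfL and -0.46 to 0.0097 for both proteins. Within homeostatic microglia 0 to 2 subclusters were called for CC-NfL with 1 library left out. The number called between batches was 1 in the quasi-binomial model and 1 to 3 with 1 library left out, and among the 9 subclusters of microglia 0 to 4.

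The homeostatic state as a whole had log2 odds ratios of -1.49 for CC-NfL (adjusted p = 0.0240) and -1.20 for both proteins (0.0340) in limma. For CC-NfL it did not pass as a share of annotated cells (-0.63). By exact permutation within batch (-23.1 points) it could not pass. For both proteins it did not pass over all splits (-17.9 points), within batch (-17.4 points), in the quasi-binomial model (-0.81) or as a share of annotated cells (-0.51). With 1 library left out it ranged from -1.67 to -0.97 for CC-NfL and from -1.48 to -0.67 for both proteins. Its call ended without CC-NfL replicate 1, 2 or 3 for CC-NfL (adjusted p = 0.0534, 0.154 and 0.0787), and in 7 of 10 such settings for both proteins (0.0574 to 0.102). The effective number differed by -0.103 over all splits (exact permutation p = 0.195) and by -0.164 to -0.120 with 1 library left out. The same-group excess was -0.00482 with 15 neighbours, -0.102 on the map of all cells (exact permutation p = 0.0222, most relabelled values being lower still) and -0.0138 to 0.0434 with 1 library left out. The share of neighbours in other states, over all splits, was 3.48 points higher for CC-NfL and 1.91 for FL-NfL than for vehicle (exact permutation p = 0.0286 each). FL-NfL minus CC-NfL was 0.0121 points on the map of all cells, and both proteins against vehicle stayed at 2.35 to 3.34 points with 1 library left out. The cause of these changes was not tested.

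With the group means removed, 8 of 9 same-numbered pairs of libraries deviated together (correlations of 0.18 to 0.70) and FL-NfL 1 and vehicle 1 did not (-0.61). The libraries of such a pair also share a batch. Differently numbered pairs within a batch ranged from -0.49 (CC-NfL 2 and vehicle 1) to 0.76 (FL-NfL 1 and vehicle 2). With batch removed too, the correlations lay on both sides of 0, from -0.81 (FL-NfL 1 and vehicle 1) to 0.41 (CC-NfL 1 and vehicle 1). FL-NfL 3 and vehicle 3 went from 0.19 to -0.77. With batch removed, deviations sum to 0 within each batch, which pulls correlations within a batch below 0. This check could therefore hardly show pairing, and whether the numbers mark pairs stays undecided. The numbers were not taken as pairs. With the replicate number as a block, the counts of calls stayed 0 for FL-NfL, 2 for CC-NfL and 2 for both proteins, and subcluster 1 had -1.16 for CC-NfL (adjusted p = 0.0116) and -0.85 for both proteins (0.0303). Counting error was small beside the spread between libraries for the shares of subclusters 1, 3, 4 and 5. It was less so for subcluster 2, with a dispersion of 2.89 within homeostatic microglia and 3.37 within all microglia. The number of libraries limits these comparisons. An exact permutation within batch cannot reach 0.05 for either protein alone.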
